A study of Mus musculus with 7 samples.

Results

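The transcription factors of the medial ganglionic eminence (MGE) lineage Lhx6, Lhx8, Nkx2-1, Sox6, Satb1, Maf and Zeb2, were followed in forebrain RNA of Lhx6 mutant and control mice. They were taken by gene symbol from a table of 47729 genes, where all 7 had a row, and all 7 were among the 19684 genes with enough counts to be tested. RNA came from freshly dissected forebrain at postnatal day 15 (P15) of F1(C57BL/6 X 129Sv) mice. The 4 control libraries were from Lhx6+/- mice, which carry 1 copy of the mutant allele, and the 3 mutant libraries were from Lhx6-/- mice. The allele in both groups was Lhx6tm2Vpa, and which exons it removes is not given in the sources used here. Every library was a pool of 2 animals, errors are therefore between pools, and no wild-type mice were included. The comparison asks which factors of the lineage are expressed at another level when both copies of Lhx6 are mutated.

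The MGE is a transient swelling of the embryonic ventral forebrain that produces most cortical interneurons containing parvalbumin or somatostatin, as well as cells of the pallidum, striatal interneurons and cholinergic neurons. Nkx2-1, a homeodomain factor, gives MGE progenitors their identity and switches on Lhx6 and Lhx8, a pair of related LIM homeodomain factors. Cells bound for the cortex turn Nkx2-1 off and keep Lhx6, after which Sox6, Satb1 and Maf act in their migration and maturation. Zeb2 also acts in these cells, while Lhx8 is best known for the cholinergic neurons of the basal forebrain. Outside this lineage, Sox6 is also made by oligodendrocyte progenitors, Zeb2 by glia, Satb1 by cortical excitatory neurons and Maf by microglia.

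Libraries summed to between 32556304 and 38069151 expected counts. Along the first principal component, with 39.6% of the variance, libraries 2, 3 and 5 (2 control and 1 mutant) lay apart from libraries 10 to 13 (2 control and 2 mutant). Calls of the 7 factors are therefore also given within these runs of library numbers. For other genes described as changed, calls lost within a run are given and calls kept are mostly not listed. Genes named only as nearest patterns have no within-run values here. The run of libraries 2, 3 and 5 holds 1 mutant library, so it gives no spread between mutants and comparisons within it have little power. Genes that mark the forebrain were present, since all 8 on that list were tested, and 8 of 10 hindbrain and cerebellar genes had too few counts to test. A gene is called changed here when the adjusted p-value of edgeR's quasi-likelihood test over all tested genes is 0.05 or less.

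The start regions of the 3 factors with the widest differences between the genotypes are shown first, because Lhx6 and its relative Lhx8 moved in opposite directions and Nkx2-1 precedes both in the lineage. Each sequence is the 250 bases before a RefSeq transcript start (build GRCm38.p6, minus strand, 5′ to 3′), at chr2:36105409-36105658 for Lhx6, chr3:154330561-154330810 for Lhx8 and chr12:56536909-56537158 for Nkx2-1. Capitals mark matches to CAGGTG, an E-box read by Zeb factors, or to TGCTGA, the core of the Maf recognition element, on either strand.
Lhx6: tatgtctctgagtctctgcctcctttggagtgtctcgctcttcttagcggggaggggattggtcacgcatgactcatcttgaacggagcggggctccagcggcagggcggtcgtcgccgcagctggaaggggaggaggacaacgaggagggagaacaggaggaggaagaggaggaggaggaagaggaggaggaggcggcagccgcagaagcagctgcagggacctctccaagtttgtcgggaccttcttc
Lhx8: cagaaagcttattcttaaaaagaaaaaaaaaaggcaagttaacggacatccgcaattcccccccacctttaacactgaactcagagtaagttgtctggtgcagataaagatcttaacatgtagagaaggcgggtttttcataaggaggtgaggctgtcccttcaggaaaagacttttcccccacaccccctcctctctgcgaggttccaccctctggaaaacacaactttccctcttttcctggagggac
Nkx2-1: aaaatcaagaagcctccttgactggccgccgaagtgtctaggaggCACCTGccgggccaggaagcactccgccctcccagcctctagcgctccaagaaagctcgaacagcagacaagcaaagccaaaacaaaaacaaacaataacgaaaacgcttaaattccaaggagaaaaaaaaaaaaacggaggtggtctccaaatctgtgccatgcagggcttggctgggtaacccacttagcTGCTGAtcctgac
A homeodomain core, TAATTA, and an NK2 core, CAAGTG, were searched in the same way and were found in none of the 3 windows. Among 32851 RefSeq windows of this length, 4.84% held TAATTA, 11.6% held CAAGTG, 17.2% held CAGGTG and 16.1% held TGCTGA. The Nkx2-1 window held 1 CAGGTG match, in the reverse orientation, starting 205 bases before the transcript start, and 1 TGCTGA match starting 13 bases before it. Of the windows before the starts of Sox6, Satb1 and Zeb2, those nearest the annotated gene starts held none of the 4 motifs, while windows at 3 of 5 other RefSeq starts of Sox6 and 2 of 4 of Satb1 held at least 1. The 2 other windows of Lhx6 held none, and 6 of the 7 factors had a RefSeq window, with Maf the exception. A match describes these letters only and is not a measured binding site.

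Read per length of exon, the factors fell into a higher and a lower tier in control forebrain (RPKM, reads scaled to exon length and library size). Satb1, a chromatin organizer, stood at 8.89 ± 0.252 RPKM (SD, n = 4) and Zeb2, a zinc finger repressor, at 8.18 ± 1.04. Maf, a leucine zipper factor, reached 3.51 ± 0.244, Lhx6 3.12 ± 0.341 and Sox6, an HMG box factor, 2.69 ± 0.386. Nkx2-1 and Lhx8 were far lower, at 0.293 ± 0.144 and 0.246 ± 0.0939 RPKM. The control ranges separated Zeb2 from Maf and Sox6 from Nkx2-1, while the other neighbours in this order overlapped, so their order is within the spread of the pools. In mutant forebrain Lhx6 dropped out of the upper tier to 0.424 ± 0.0208 RPKM (n = 3), under both Lhx8 (0.645 ± 0.0807) and Nkx2-1 (0.599 ± 0.0835), and the other factors kept their tiers. Mutant counts scaled to library size but not to length kept Lhx6 (72.5 ± 3.55) above Nkx2-1 (60.7 ± 8.45) and Lhx8 (58.2 ± 7.28).

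**Figure D1:**
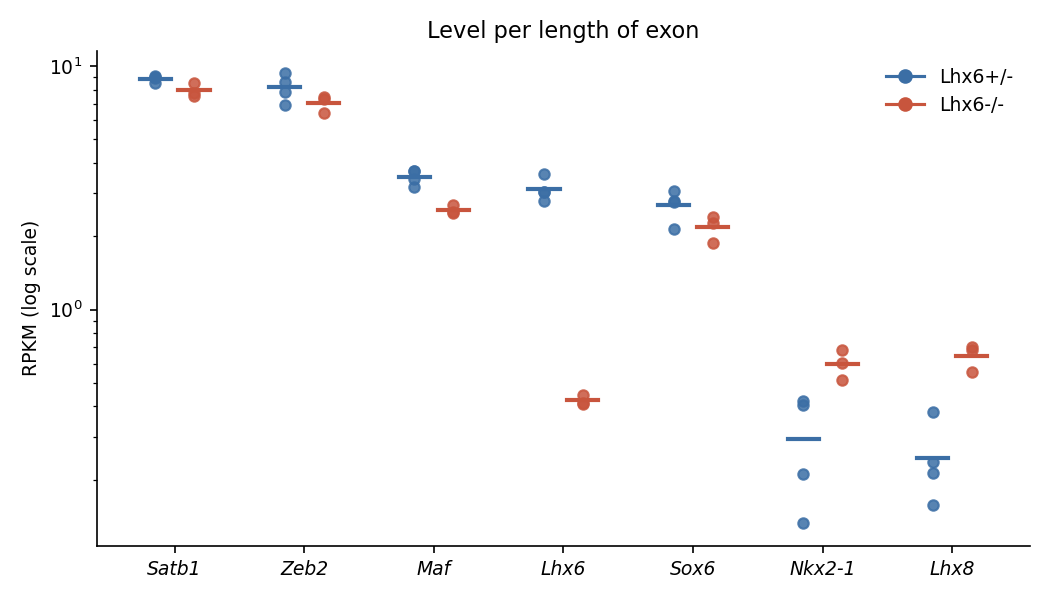
Level of each factor in RPKM, on a log axis, in the 4 Lhx6+/- and 3 Lhx6-/- libraries (points) with group means (bars). Lhx6 moves from 3.12 to 0.424 RPKM on average, below Lhx8 and Nkx2-1 per length of exon though not in counts. Satb1 and Zeb2 stay highest in both genotypes.

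Of the 7 factors, 2 were called lower in the mutants (Lhx6 and Maf), 1 was called higher (Lhx8) and 4 did not pass. Over all tested genes 4.85% were called, 1.87% lower and 2.97% higher. The members' median log2 fold change was -0.21, beside -0.01 over all tested genes. Lhx6, Maf, Lhx8 and Nkx2-1 had groups that did not overlap, as did 19.7% of all tested genes.

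**Figure D2:**
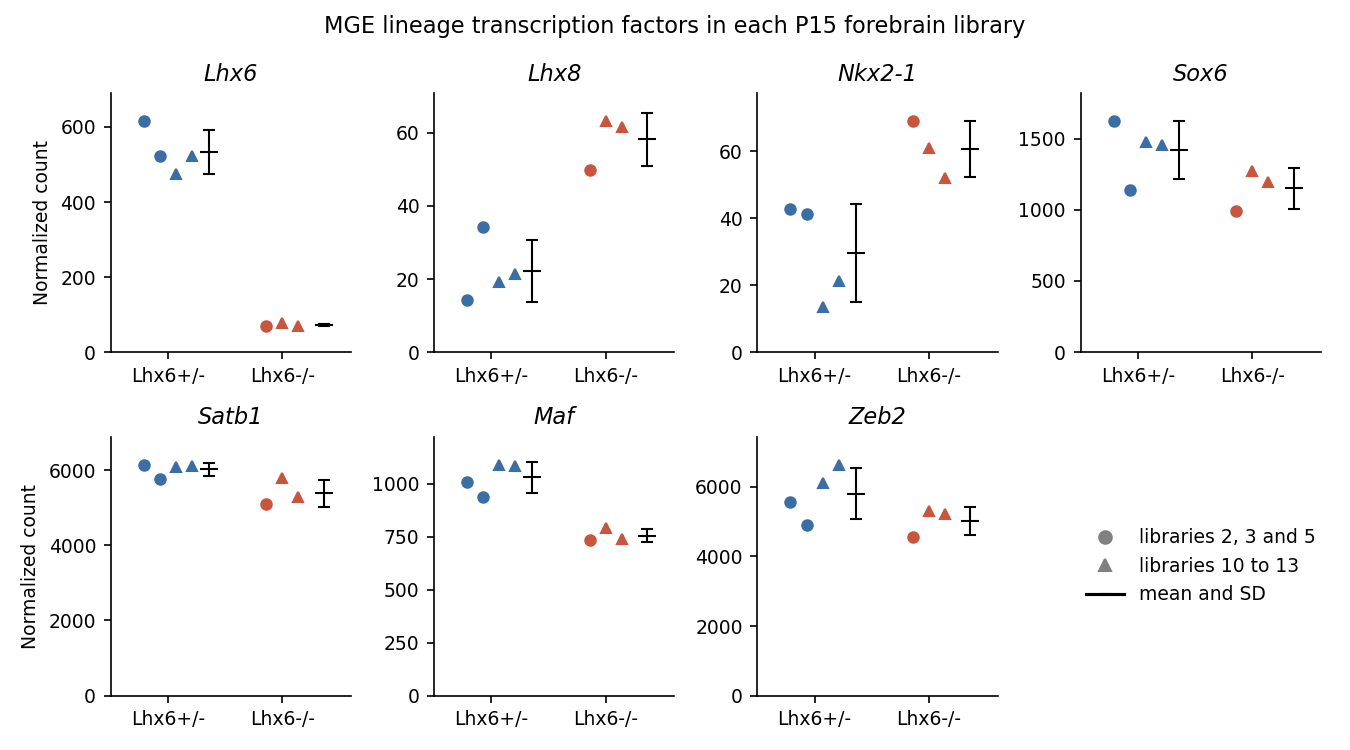
Normalized counts (library counts scaled to a common size) of each factor in every library, with circles for libraries 2, 3 and 5, triangles for libraries 10 to 13, and group mean and SD at the side. The genotypes are separate for Lhx6, Lhx8, Nkx2-1 and Maf and overlap for Sox6, Satb1 and Zeb2.

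Lhx6, the mutated gene (chr2:36081953-36105408, minus strand), was low in every library labelled mutant. Controls 2, 3, 10 and 11 (numbered by library) had normalized counts of 615, 522, 476 and 522, while mutants 5, 12 and 13 had 70.9, 76.6 and 70.1. Every mutant library lay far under every control library, and each mutant library held 74 counts before scaling. From 534 ± 58.5 (SD, n = 4) to 72.5 ± 3.55 (n = 3), the mean fell by 2.88 on the log2 scale (SE 0.135, 95% interval -3.19 to -2.57, edgeR adjusted p = 5.99e-05), to 13.6% of the control level with an interval of 11.0% to 16.8%. Lhx6 was called in all 20 alternative fits. The counts are per gene, so they do not show which exons the remaining reads came from. In bulk RNA such as this, fewer cells of a type and less RNA per cell cannot be told apart.

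The gene bodies around Lhx6 were measured too. Rbm18, the nearest tested coding gene, was at 1929 ± 183 normalized counts in controls and 1880 ± 150 in mutants (log2 fold change -0.04, adjusted p = 0.899). Gm27953, a short RNA gene that shares exon bases with Lhx6, had no counts in any library. Of the 12 tested coding genes next to the 7 factors, 0 were called by edgeR or by DESeq2 and 1, Acvr2a beside Zeb2, had an unadjusted p under 0.05 (log2 fold change -0.29, adjusted p = 0.258). Zeb2 lies 8.88 Mb from Lhx6 on the same chromosome.

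Lhx8, the LIM homeodomain relative of Lhx6 on another chromosome (chr3:154306294-154330659), was higher in the mutants. Controls 2, 3, 10 and 11 held 14.3, 34.1, 19.2 and 21.3 normalized counts, against 49.8, 63.1 and 61.5 for mutants 5, 12 and 13. The highest control, library 3, stayed below the lowest mutant, library 5. The mean went from 22.2 ± 8.48 (n = 4) to 58.2 ± 7.28 (n = 3), a log2 fold change of 1.38 (SE 0.301, 95% interval 0.69 to 2.06, adjusted p = 0.0370), or 2.60-fold with an interval of 1.62 to 4.18. Lhx8 was called in 12 of the 20 alternatives. It has few reads, with 13 to 34 counts in controls and 52 to 65 in mutants, and its interval is accordingly wide. No 36-base word, the length of a read, was shared between Lhx8 and any other gene, Lhx6 included.

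The call of Lhx8 depended on single libraries. It was lost without control library 2 (adjusted p = 0.0692), 10 (0.100) or 11 (0.0877) and without mutant library 5 (0.0760), 12 (0.135) or 13 (0.149), and stayed without control library 3 (0.0118). Log2 fold changes over these 7 fits ran from 1.22 to 1.66, and adjusted p-values over all 20 alternatives from 0.00352 to 0.337. Within libraries 2, 3 and 5 the log2 fold change was 1.03 (adjusted p = 0.337) and within libraries 10 to 13 it was 1.62 (adjusted p = 0.102). The difference between the runs was 0.59 (SE 0.644), which 1 mutant library in the first run leaves too imprecise to read.

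Per length of exon, the balance of the pair turned over. Lhx6 exceeded Lhx8 per length of exon by 22.7, 8.06, 13.1 and 12.9 times in controls 2, 3, 10 and 11. The ratio was 0.750, 0.639 and 0.600 for mutants 5, 12 and 13. Lhx8 thus stood above Lhx6 per length of exon in every mutant pool. In normalized counts the order was the other way, with Lhx6 at 70.9, 76.6 and 70.1 and Lhx8 at 49.8, 63.1 and 61.5. The mutant RPKM of Lhx6 is set against its whole exon length, whatever the allele removes.

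Nkx2-1, upstream of both in the lineage (chr12:56531958-56536908), had separate groups but did not pass the test. Controls 2, 3, 10 and 11 gave 42.8, 41.2, 13.4 and 21.3 normalized counts, and the mutants (5, 12 and 13) gave 69.0, 61.1 and 52.1. Among the controls, libraries 2 and 3 were above libraries 10 and 11, and the mutants were above them all. The means were 29.7 ± 14.6 and 60.7 ± 8.45, a log2 fold change of 1.03 (SE 0.381, 95% interval 0.17 to 1.90, adjusted p = 0.191). When the run of library numbers was a covariate, the log2 fold change was 1.27 (adjusted p = 0.0240), within libraries 10 to 13 it was 1.70 (adjusted p = 0.0436) and within libraries 2, 3 and 5 it was 0.72 (adjusted p = 0.358). Nkx2-1 was called in 2 of the 20 alternatives, and the highest adjusted p was 0.372 without mutant library 5.

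Markers of the cells that keep Lhx8 or Nkx2-1 after birth were read beside these values. Of 8 basal forebrain cholinergic genes, 0 were called by edgeR, DESeq2 or limma-voom (3 had an unadjusted p under 0.05), with a median log2 fold change of 0.44, and the summed level of the list was 12.9 to 17.1 CPM (counts scaled to library size) in controls and 15.5 to 21.6 in mutants. Chat, the enzyme that makes acetylcholine, was at 59.3 ± 21.6 and 63.0 ± 28.8 normalized counts (log2 fold change 0.09, but -1.11 within libraries 2, 3 and 5), and Gbx1, a homeodomain factor of these neurons, at 7.08 ± 2.39 and 19.9 ± 11.1 (1.47, adjusted p = 0.141). Only 4 of 12 hypothalamic genes had enough counts to test, 0 were called by edgeR or DESeq2, 0 had an unadjusted p under 0.05, and the list summed to 2.77 to 5.42 CPM in controls and 4.07 to 8.15 in mutants. On the list for the pallidal region Penk, a peptide precursor of striatal and pallidal neurons, rose (log2 fold change 1.20, SE 0.201, adjusted p = 0.0130), Kcnab3 and Etv1 fell by 0.73 and 0.49 on the log2 scale, and 3 of 6 were not called. This list, Penk included, summed to 190 to 220 CPM in controls and 263 to 321 in mutants, which did not overlap. The call of Penk was lost without mutant library 12 (0.0595) or 13 (0.0579) and within both runs (0.190 within libraries 2, 3 and 5 and 0.0595 within 10 to 13). That of Kcnab3 was lost without mutant library 13 (0.0665) and within libraries 2, 3 and 5 (0.0811). With the run covariate 2 of the 8 cholinergic and 1 of the hypothalamic genes were called. The part of dissection or cell makeup in the Lhx8 and Nkx2-1 values was not tested.

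Maf (chr8:115682942-115707794), which is needed by maturing MGE interneurons, was lower in the mutants. Normalized counts of the controls (2, 3, 10 and 11) were 1007, 938, 1089 and 1084, and those of the mutants (5, 12 and 13) were 735, 791 and 739. The groups were separate, and the controls 2 and 3 lay under the controls 10 and 11. The mean fell by 0.45 on the log2 scale (1030 ± 71.8 to 755 ± 31.3, SE 0.0879, 95% interval -0.65 to -0.25, adjusted p = 0.0248), leaving 73.3% of the control level with an interval of 63.8% to 84.2%. Maf was called in 14 of 20 alternatives, with adjusted p-values from 0.000268 to 0.142. Its call was lost without control library 10 (0.0796) or 11 (0.0717), without mutant library 5 (0.0984), 12 (0.0780) or 13 (0.134), and within libraries 2, 3 and 5 (log2 fold change -0.40, adjusted p = 0.142), although the log2 fold change stayed between -0.51 and -0.40 throughout.

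Maf had the highest share of 36-base words in common with other genes among the 7 factors, 5.10% against 0 to 2.93%. Gm15655, an antisense gene, shares 5.34% of the exon bases of Maf and held 8 counts in control library 3, 12 in mutant library 5 and 0 elsewhere. Microglia, another source of Maf, had 0 of 10 marker genes called by edgeR or DESeq2 (2 had an unadjusted p under 0.05), 1 with the run covariate, and a median log2 fold change of -0.07, with the list's summed level at 416.9 to 430 CPM in controls and 358 to 417 in mutants. Its part in the lower Maf level was not tested.

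Sox6, Satb1 and Zeb2, which like Maf act in cortex-bound MGE cells, all had mutant means below the control means. In each the libraries overlapped, and no fit called them. Sox6 (chr7:115470872-116038796) stood at 1622, 1137, 1473 and 1455 normalized counts for controls 2, 3, 10 and 11, with mutants 5, 12 and 13 at 991, 1271 and 1193. Control library 3 sat among the mutants. The means were 1422 ± 204 and 1152 ± 144, a log2 fold change of -0.30 (95% interval -0.61 to 0.0024, adjusted p = 0.278), which places the mutant between 65.5% and 100.2% of control.

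Satb1 (chr17:51736187-51833290) was measured most closely, with 6142, 5771, 6081 and 6104 normalized counts for controls 2, 3, 10 and 11, and mutants 5, 12 and 13 at 5090, 5786 and 5276. Control library 3 was low and mutant library 12 high, and these crossed. The means were 6024 ± 171 and 5384 ± 360, a log2 fold change of -0.16 (95% interval -0.34 to 0.014, adjusted p = 0.319), so the mutant lay between 79.1% and 101.0% of control.

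Zeb2 (chr2:44983632-45117395) varied more, at 5579, 4916, 6109 and 6638 normalized counts for controls 2, 3, 10 and 11, with mutants 5, 12 and 13 at 4568, 5298 and 5210. As for Maf, controls 2 and 3 were under controls 10 and 11. The means were 5810 ± 737 and 5025 ± 398, a log2 fold change of -0.21 (95% interval -0.47 to 0.052, adjusted p = 0.395), or 72.2% to 103.6% of control. Zeb2os, an antisense gene over 2.34% of the exon bases of Zeb2, was at 120 ± 50.9 and 94.6 ± 18.3 normalized counts (adjusted p = 0.664). None of these 3 intervals reached the loss of Lhx6. The log2 fold change of Maf (-0.45) lay within the intervals of Sox6 and Zeb2 and outside that of Satb1.

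Glial cells that also make Sox6 or Zeb2 were read from their markers. Of 10 oligodendrocyte progenitor genes 0 were called by edgeR, 2 by DESeq2 and 1 with the run covariate (2 had an unadjusted p under 0.05), with a median log2 fold change of 0.04. Of 8 genes of mature oligodendrocytes 3 fell (Mbp, Mag and Cnp, myelin genes, at -0.53, -0.54 and -0.48), 7 with the run covariate, and the list's sum was 6588 to 8494 CPM in controls and 4720 to 5817 in mutants. These calls were lost without mutant library 13 (0.0624, 0.0722 and 0.0755 for Mbp, Mag and Cnp) and within libraries 2, 3 and 5 (0.0584, 0.0972 and 0.0854), and those of Mag and Cnp also without mutant library 5 (0.0508 and 0.0553). Gfap, an astrocyte filament gene, rose by 1.95 on the log2 scale (adjusted p = 7.41e-05), the 1 call edgeR made among 10 astrocyte genes, where DESeq2 and the run covariate each made 3 and upper quartile scaling 2. The list's sum was 6133 to 8823 CPM in controls and 9626 to 11219 in mutants. The part of these cells in the levels of Sox6 and Zeb2 was not tested.

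**Figure D3:**
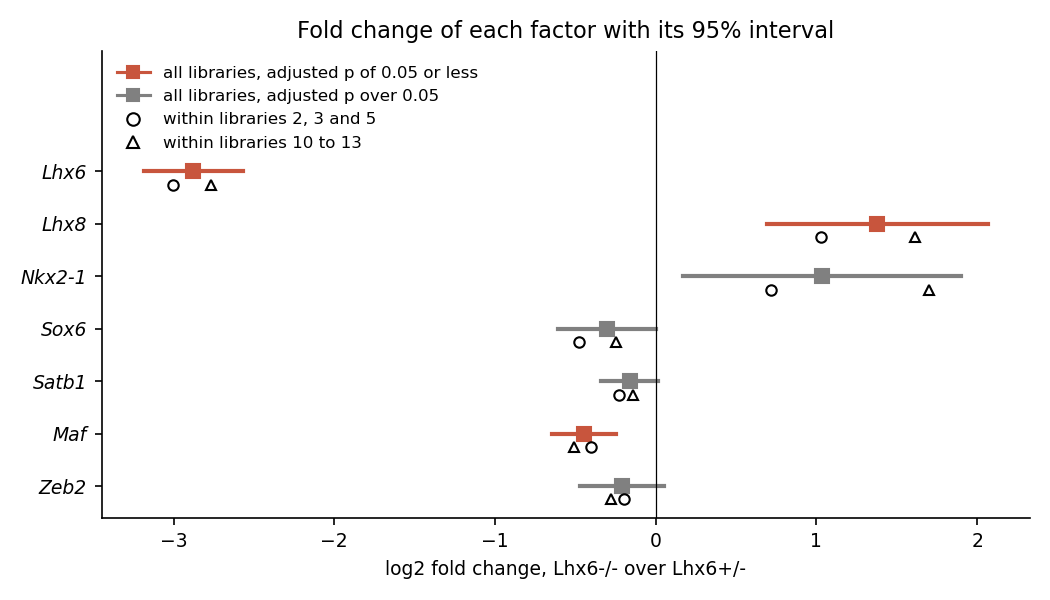
Log2 fold change of each factor, mutant over control, with its 95% interval over all libraries (squares and lines) and the value within each run of library numbers (open symbols). Lhx6 and Maf lie to the left of 0 and Lhx8 to the right, each called, and the intervals of Sox6, Satb1 and Zeb2 reach just past 0.

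**Figure D4:**
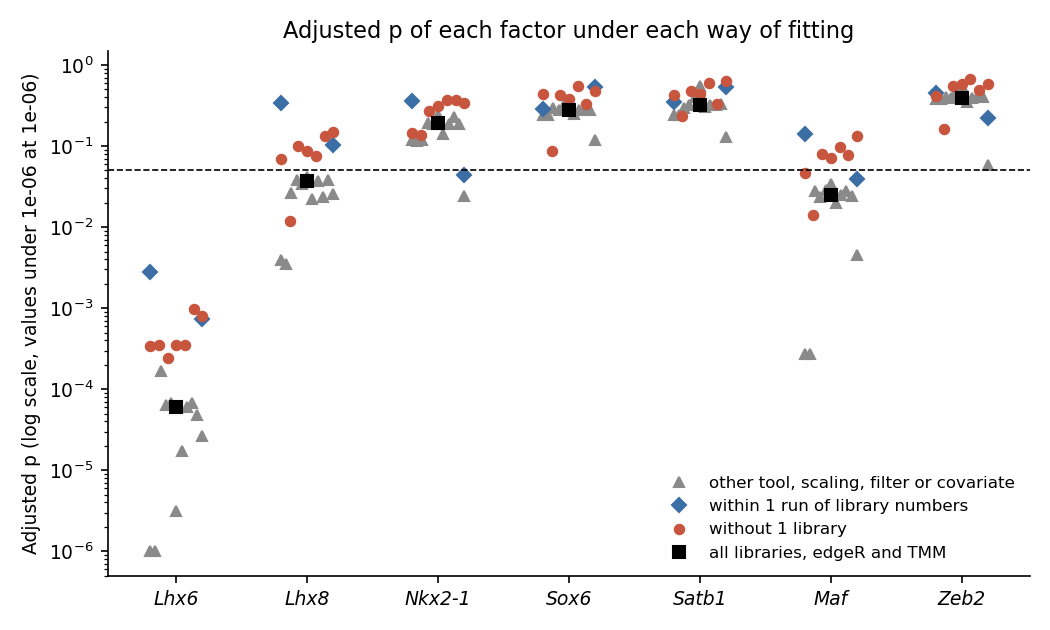
Adjusted p of each factor, on a log axis, over all libraries with edgeR (black squares) and in the 20 alternatives, with a dashed line at 0.05. Lhx6 stays under the line throughout, Lhx8 and Maf cross it when 1 library is left out, and Sox6, Satb1 and Zeb2 stay above it.

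LIM homeodomain factors work in complexes with Ldb proteins, and Lmo proteins compete for the same partners, so both families were read next to Lhx6 and Lhx8. Of 12 LIM homeodomain genes 6 had enough counts, and 3 of these were called: Lhx6, Lhx8 and Lhx2. Lhx2, a factor of cortical progenitors and neurons, fell by 0.33 on the log2 scale, from 2905 ± 81.4 to 2305 ± 147 normalized counts (SE 0.0728, adjusted p = 0.0368). Its values were 2992, 2848, 2956 and 2824 in the controls and 2287, 2460 and 2168 in the mutants, which did not overlap. The call of Lhx2 held without control library 3 (0.0409) and was lost without any other library, the highest adjusted p being 0.191 without mutant library 13, and it was lost within libraries 2, 3 and 5 (0.185) and 10 to 13 (0.148). Isl1 (0.54), Lhx9 (-0.38) and Lmx1b (-0.04) were not called, and Isl1 and Lmx1b changed sign within libraries 2, 3 and 5 (-0.17 and 0.50).

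Among 10 cofactor genes edgeR called 2 lower and 0 higher, and the list's median was -0.15 on the log2 scale. DESeq2 called 3 of them, and the fit with the run covariate called 3 lower and 1 higher. Ldb2, which bridges LIM homeodomain proteins, went from 1376 ± 132 to 888 ± 30.3 normalized counts (log2 fold change -0.63, SE 0.0938, adjusted p = 0.00771). Controls 2, 3, 10 and 11 held 1508, 1318, 1459 and 1220, against 922, 875 and 866 for mutants 5, 12 and 13, so the genotypes were well apart. Lmo1 went from 301 ± 60.0 to 145 ± 4.39 (log2 fold change -1.05, SE 0.166, adjusted p = 0.0102). Both calls were lost only without mutant library 13 among the fits without 1 library (adjusted p = 0.0575 for Ldb2 and 0.0606 for Lmo1). Within libraries 2, 3 and 5 neither was called (0.0975 and 0.0525), and within libraries 10 to 13 Ldb2 was (0.0442) and Lmo1 was not (0.0673). Ldb1, the partner made by most cells, was at 2523 ± 104 and 2659 ± 203 (log2 fold change 0.08, adjusted p = 0.694), and Lmo4 missed the threshold (-0.33, adjusted p = 0.0552).

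**Figure D5:**
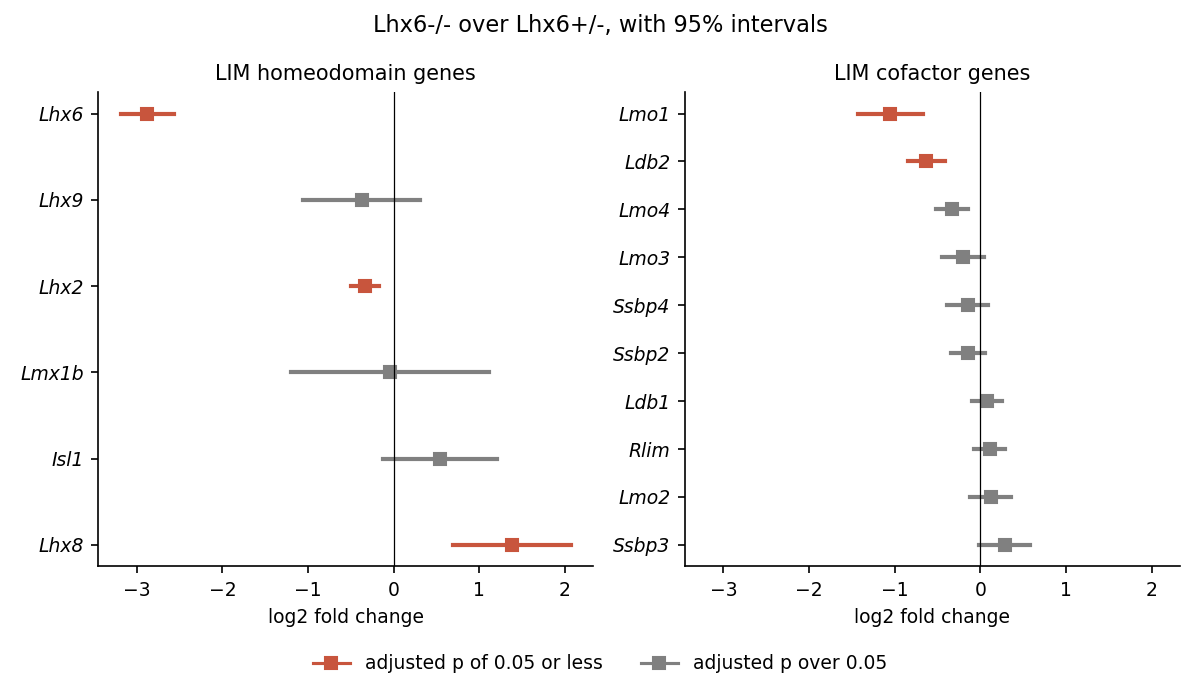
Log2 fold changes with 95% intervals of LIM homeodomain genes and their cofactors, with called genes in red. Lhx6, Lhx2, Lmo1 and Ldb2 lie to the left of 0 and Lhx8 to the right.

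Relatives of Sox6 and Zeb2 were read in the same way. Sox5, which pairs with Sox6 and is better known from cortical projection neurons, rose from 1629 ± 138 to 2259 ± 72.2 normalized counts (log2 fold change 0.47, SE 0.0845, adjusted p = 0.0166), and the genotypes did not overlap. Without 1 library in turn its call was lost without each of the mutant libraries (adjusted p = 0.0525, 0.0595 and 0.0984 without 5, 12 and 13), and it was lost within libraries 2, 3 and 5 (0.0958) and 10 to 13 (0.102). Zeb1, the relative of Zeb2, was at 0.17 and was not called.

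Further transcription factors of GABAergic lineages were measured as well. Etv1, an ETS factor, fell by 0.49 on the log2 scale (adjusted p = 0.0478), and its call was lost without any library but control 3 (0.0120 without it) and within both runs (0.165 and 0.0669). Dlx1, Dlx2, Dlx5 and Dlx6, which work across the whole ganglionic eminence, had log2 fold changes of 0.01, 0.05, -0.12 and -0.41 and were not called. The sign of the first 3 differed in some alternatives. Of 8 factors of the caudal ganglionic eminence, the source of other interneurons, 0 were called by edgeR or DESeq2 (2 had an unadjusted p under 0.05), with Sp8 at 0.61 (adjusted p = 0.214), Nr2f2 at -0.41 (0.305) and Prox1 at -0.07 (0.832, with a log2 fold change of 0.04 within libraries 2, 3 and 5).

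Among genes placed downstream of Lhx6 in earlier work, Sst and Erbb4 fell, while Sox6, Satb1 and the migration receptors Cxcr4 (0.13) and Ackr3 (0.04, but -0.16 within libraries 2, 3 and 5) were not called. Erbb4, the neuregulin receptor of interneurons, fell by 0.70 on the log2 scale (adjusted p = 0.0485, kept without control library 3 and lost without any other, up to 0.176, and 0.0768 within libraries 2, 3 and 5). A list of 12 MGE interneuron products gave 9 lower and 3 higher genes, but it was drawn up with these values known and is no independent evidence of its direction. Its 3 higher genes, Cort, Crhbp and Tac1 (1.93, 0.93 and 0.83), code for peptides or a peptide-binding protein. The call of Tac1 was lost without control library 2 (0.0685) or 10 (0.0894), without mutant library 12 (0.129) or 13 (0.151) and within both runs (0.273 and 0.0665), and that of Crhbp within libraries 2, 3 and 5 (0.0554).

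The genes whose levels ran most like each factor over the 7 libraries were found by the root mean square difference of centred log2 CPM among 15755 genes. For Lhx6 they were the interneuron products Sst (0.232), Pvalb (0.324) and the growth factor Fgf10 (0.401). Sst went from 5356 ± 874 to 588 ± 70.7 normalized counts and Pvalb from 931 ± 147 to 113 ± 31.2. For Lhx8 they were Penk (0.161), Adgrf4 (0.180) and Myl4 (0.183), and for Nkx2-1 Fam124b (0.206), Edn1 (0.208) and A230052G05Rik (0.235). For Maf they were Slc1a6 (0.0331), Lrrn2 (0.0386) and Sept5 (0.0405). For Sox6 the nearest were Eml6, B3gat1 and Gm9864 (0.0682 to 0.0706), for Satb1 C2cd2l, Imp4 and Ap3b2 (0.0205 to 0.0227), and for Zeb2 Serinc5, Lrrc4 and Arhgef4 (0.0325 to 0.0435). All distances are over the same 7 libraries, and no test was made of them.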

How the data were processed

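Per the labels and the study's methods, total RNA of P15 forebrain pools was sequenced as 36-base single ends. The authors trimmed reads with cutadapt 1.9.1, aligned them with Bowtie2 2.2.9 to the GRCm38 transcriptome of Ensembl release 84 and deposited RSEM 1.2.31 expected counts per gene, without normalization. RSEM divides reads that match several genes, and 32.9% to 36.0% of values in a library were not whole. The strand setting is not given in the sources used here. Reads in exon bases that an antisense gene shares with a member therefore cannot be assigned by strand. The authors also deposited log2 fold changes, a score, and p-values of their own DESeq2 comparison, which were not used beyond its symbols.

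Each count column names its genotype and a library, not a replicate, and 0 columns of per-sample values were left unused. Counts were rounded, scaled by TMM and tested with edgeR 4.0.16 (R 4.3.3) by the quasi-likelihood F-test without a covariate, two-sided, on genes that reached 10 counts in 3 or more libraries, with Benjamini-Hochberg adjustment over all of them. Standard errors were derived from the F statistic (the fold change divided by its root), and intervals are at 95%. Libraries held 32556304 to 38069151 counts, and where the smallest library shows 0 the level may be as high as 3 counts (0.0921 CPM), for counting error only. RPKM used the union of exons. Pairs of libraries of a genotype had a chi-square per degree of freedom of 9.93 to 70.4, so none was one library deposited again. The labels do not say how pools were assigned to litters, and p-values measure the spread between these pools. Alternatives were DESeq2 1.42.0 (beta prior on or off), voom in limma 3.58.1, other scalings and filters, unrounded or thinned counts and no X and Y genes. Further alternatives took the runs of library numbers as covariate, compared genotypes within each run, or left out each library in turn. The within-run comparisons are contrasts of a joint fit of all 7 libraries, so their p-values draw on the spread in both runs. Tests were tried on simulated data. Named genes were the 7 members, called genes of each list (at most 6, or any gene of lists with up to 8 tested), the 3 nearest patterns per member, and overlapping or neighbouring genes. Members and lists were chosen with earlier results of these data known. Genes outside this rule, chosen after their values were seen, were Zeb1, Ldb1, Lmo4, Tac1, Cxcr4, Ackr3 and the 4 Dlx genes. Promoters came from RefSeq on GRCm38.p6. Some genes of the lists, and list counts that rest on them, are not reported here.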

Additional observations from a re-analysis of the deposited data

Results flagged for a closer look

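The control libraries of Satb1 held 1 library that stood apart from the rest. Library 3, at 5771 normalized counts, was separated from the nearest control (6081) by 0.836 of the whole control range of 5771 to 6142. Chance alone marks about 1 in 20 groups in this way, and 7 control groups were examined. Without control library 3 the log2 fold change of Satb1 was -0.18 (adjusted p = 0.235), and the gene stayed uncalled.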

How the results depend on the processing

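No paired analysis was possible because the count columns name genotype and library but not the replicate. The 7 members kept their direction in all 20 alternatives. Of the listed genes and nearest patterns, 0 of 38 called and 42 of 139 uncalled genes changed sign in at least 1 alternative. Over all genes, 954 were called, 1731 by DESeq2 without and 1734 with its beta prior, 2205 with the run of libraries as a covariate, 351 within libraries 2, 3 and 5, 512 within libraries 10 to 13, and 302 to 971 without 1 library. Of the members, 3 were called, 1 within libraries 2, 3 and 5, and 1 to 3 without 1 library. Lhx8 was at 1.03 within libraries 2, 3 and 5 and 1.62 within libraries 10 to 13, both without a call, and between 1.22 and 1.66 without 1 library. Maf was at -0.40 within libraries 2, 3 and 5, without a call, and between -0.49 and -0.42 without 1 library. Nkx2-1 was called with the run covariate (1.27) and within libraries 10 to 13 (1.70). The beta prior, which shrinks fold changes of low counts by construction, took Lhx8 to 0.80 with a call and Nkx2-1 to 0.53 without one. Comparisons within a run and fits without 1 library rest on fewer samples, and the cause of the other differences was not tested. Of 32 called genes on the lists, 0 changed sign under RLE or upper quartile scaling, with 0 and 2 calls lost. The run covariate moved the number of calls on further lists, from 2 to 4 of 10 LIM cofactors, 1 to 3 of 10 astrocyte, 0 to 4 of 8 endothelial and 0 to 1 of 8 forebrain genes. With 13 to 72 counts a library, depth limits what can be said of Lhx8 and Nkx2-1.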
